A study of Bos taurus with 31 samples.

Results

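The hepatocyte lineage transcription factors considered here were the 8 genes HNF4A, FOXA1, FOXA2, FOXA3, CEBPA, CEBPB, ONECUT1 and PROX1, taken from the deposited count table of bovine liver by gene symbol. The table held 24616 genes. A row with the symbol was found for 6 of the 8, and all 6 had at least 20 reads summed over all cows, the limit above which 15916 genes were tested. No row carried the symbol CEBPA or CEBPB, and 4961 rows carried no symbol, so both genes were not analysed here. The identifiers of the 6 genes were ENSBTAG00000012116 for HNF4A, ENSBTAG00000013888 for FOXA1, ENSBTAG00000012407 for FOXA2, ENSBTAG00000012104 for FOXA3, ENSBTAG00000046470 for ONECUT1 and ENSBTAG00000010978 for PROX1.

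Livers of 31 lactating German Holstein cows were sampled by puncture biopsy at the end of a feeding period. Rations held either a high (HC) or a low (LC) proportion of concentrate feed, and feedstuffs were either contaminated with glyphosate residues (GLY) or were control feedstuffs (CON). The groups were CONHC, CONLC and GLYHC with 8 cows each and GLYLC with 7 cows. The glyphosate came with peas, wheat grain and straw from crops sprayed with Roundup Record, a formulated herbicide, so that residues and formulation cannot be told apart. Each cow gave 1 library of polyadenylated RNA, with 11675775 to 36675542 reads assigned to genes. A biopsy holds several cell types, and fewer hepatocytes and less RNA per hepatocyte cannot be told apart in such bulk samples.

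Hepatocytes owe their identity to a small set of transcription factors that bind together at enhancers and promoters of liver genes. The FOXA proteins are pioneer factors that bind nucleosomal DNA and make it accessible, HNF4A is the nuclear receptor that activates most of the metabolic and secretory genes of the cell, and ONECUT1 (HNF6) acts in hepatocyte and bile duct development. PROX1 is a homeobox protein needed for the outgrowth of the liver bud, which is also found in lymphatic endothelium and which represses some HNF4A targets. The C/EBP proteins add responses to glucagon, glucocorticoids and inflammation.

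The tissue label was checked with albumin, ALB, which was measured at 42900 to 146840 CPM (counts scaled by library size and TMM factor). Some libraries stood apart by markers of other cells. In GLYLC cow 912, the 8 measured markers of intestinal epithelium summed to 502 CPM, against 58.2 to 140 CPM in the 30 other cows. FABP2, the fatty acid binding protein of enterocytes, was at 206 CPM in cow 912 and at most at 0.163 CPM in any other cow. MUC13, OLFM4 and BCO1, 3 further intestinal genes, were at 25.1, 11.5 and 46.8 CPM in cow 912 and at most at 0.0880, 0.143 and 0.110 CPM elsewhere. HNF4G, CDH17 and LGALS4 of the same list were read in all 31 livers, and SOX9 of the bile duct list and CDX1 and CDX2 of the intestinal list were not analysed here. The acute phase gene HP, which encodes haptoglobin, was at 19491 CPM in cow 912 and at 6569 CPM in the next highest cow. The 16 metabolic enzymes of hepatocytes summed to 9210 CPM in cow 912, the lowest of the 31 cows. The 8 stellate cell markers summed to 1860 CPM in CONLC cow 103, with COL1A1 at 434 CPM, and to 742 CPM in CONLC cow 166, with DES at 298 CPM, beside a CONLC median of 295 CPM. In cow 912 they summed to 810 CPM, beside a GLYLC median of 293 CPM, and DES was at 509 CPM, the highest of the 31 cows. Of the other markers in cow 912, RGS5 ranked 1, ACTA2 5, COL1A1 8, DCN and COL3A1 14, LRAT 19 and PDGFRB 22 from the top. The high sum of cow 912 thus rested mainly on DES and was not shared by the whole list. Cows 103, 166 and 912 were all LC cows. Several group differences and correlations of the hepatocyte factors moved by over 1.5 times without cow 912. Many of these, though not all, are given with and without it where they are described.

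HNF4A varied little around a mean of 123 ± 16.9 CPM (SD, n = 31). In CONHC its lowest, median and highest values were 113, 128 and 139 CPM, and in CONLC they were 72.5, 127 and 155 CPM. In GLYHC the values were 108, 119 and 145 CPM, and in GLYLC 78.7, 121 and 134 CPM. The groups overlapped throughout, and both low values stood in the LC groups, in CONLC cow 166 and GLYLC cow 102. In cow 166 the endothelial markers summed to 437 CPM, the lymphocyte markers to 81.4 CPM and the metabolic enzymes to 14289 CPM, the lowest enzyme sum after cow 912. In cow 102 these sums were 350, 54.5 and 19334 CPM in the same order. The highest endothelial sum was 474 CPM, in GLYLC cow 544 with HNF4A at 124 CPM. The highest lymphocyte sum was 107 CPM, in GLYHC cow 117 with HNF4A at 111 CPM. The part of these markers in the low HNF4A of cow 166 was not tested. Without cow 166, HNF4A differed by 0.01 for HC vs LC and by -0.04 for CONHC vs CONLC, against 0.05 and 0.04 with it. The coefficient of variation was 6.78% in CONHC, 20.3% in CONLC, 10.6% in GLYHC and 15.4% in GLYLC.

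FOXA1 was the factor with the narrowest range, from 3.64 CPM in GLYHC cow 131 to 6.44 CPM in CONHC cow 7, and the reads behind it numbered 51 to 183 per cow over all cows. Its group means were 4.86 ± 0.784 CPM in CONHC, 4.98 ± 0.686 in CONLC, 4.81 ± 0.736 in GLYHC and 4.52 ± 0.496 in GLYLC (SD, n = 8, 8, 8 and 7). These means lay closer together than the SD within any group.

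FOXA2 had a lowest, median and highest value of 7.71, 9.51 and 15.9 CPM in CONHC, 7.26, 9.69 and 12.4 CPM in CONLC, 7.28, 11.2 and 13.2 CPM in GLYHC, and 7.86, 10.4 and 22.3 CPM in GLYLC. The highest of these was cow 912, and the next highest GLYLC cow had 13.8 CPM. The GLYLC mean was 12.2 ± 4.86 CPM (SD, n = 7) with cow 912 and 10.5 ± 2.07 CPM (SD, n = 6) without it.

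FOXA3 was the most variable of the factors, with a 9.24-fold range from 4.24 CPM in CONLC cow 169 to 39.2 CPM in GLYLC cow 912. In CONHC its lowest, median and highest values were 5.37, 13.0 and 18.02 CPM, and in CONLC they were 4.24, 10.9 and 20.6 CPM. In GLYHC they were 4.66, 7.80 and 24.0 CPM, with cow 117 at the top and the next cow at 12.6 CPM. In GLYLC they were 6.90, 9.99 and 39.2 CPM, and cow 905 followed cow 912 at 21.3 CPM. Each group thus reached from low to high FOXA3, and the GLYLC mean of 15.5 ± 11.5 CPM (SD, n = 7) became 11.6 ± 5.23 CPM (SD, n = 6) without cow 912.

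ONECUT1 was read at 2.36 to 8.10 CPM, from 50 to 226 reads per cow. The lowest, median and highest values were 4.01, 4.96 and 8.09 CPM in CONHC, 2.36, 4.83 and 7.32 CPM in CONLC, 4.64, 5.43 and 8.10 CPM in GLYHC, and 3.40, 4.56 and 6.81 CPM in GLYLC. All 8 GLYHC cows lay above the GLYLC median, but the top of GLYLC lay above 7 of the GLYHC cows, so the groups overlapped. The lowest value belonged to CONLC cow 166, which also had the lowest HNF4A and the marker sums given there. Without cow 166, ONECUT1 differed by -0.01 for GLYLC vs CONLC on the log2 scale, against 0.09 with it. Without cow 912 instead, that difference was 0.17.

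PROX1 ranged 2.97-fold, from 21.6 to 64.1 CPM. Its group means were 36.3 ± 10.1 CPM in CONHC, 38.1 ± 14.8 in CONLC, 42.5 ± 12.1 in GLYHC and 40.5 ± 11.5 in GLYLC (SD, n = 8, 8, 8 and 7). Low and high cows were present in every group, such as 23.9 CPM in cow 260 and 64.1 CPM in cow 60, both of CONLC.

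**Figure D1:**
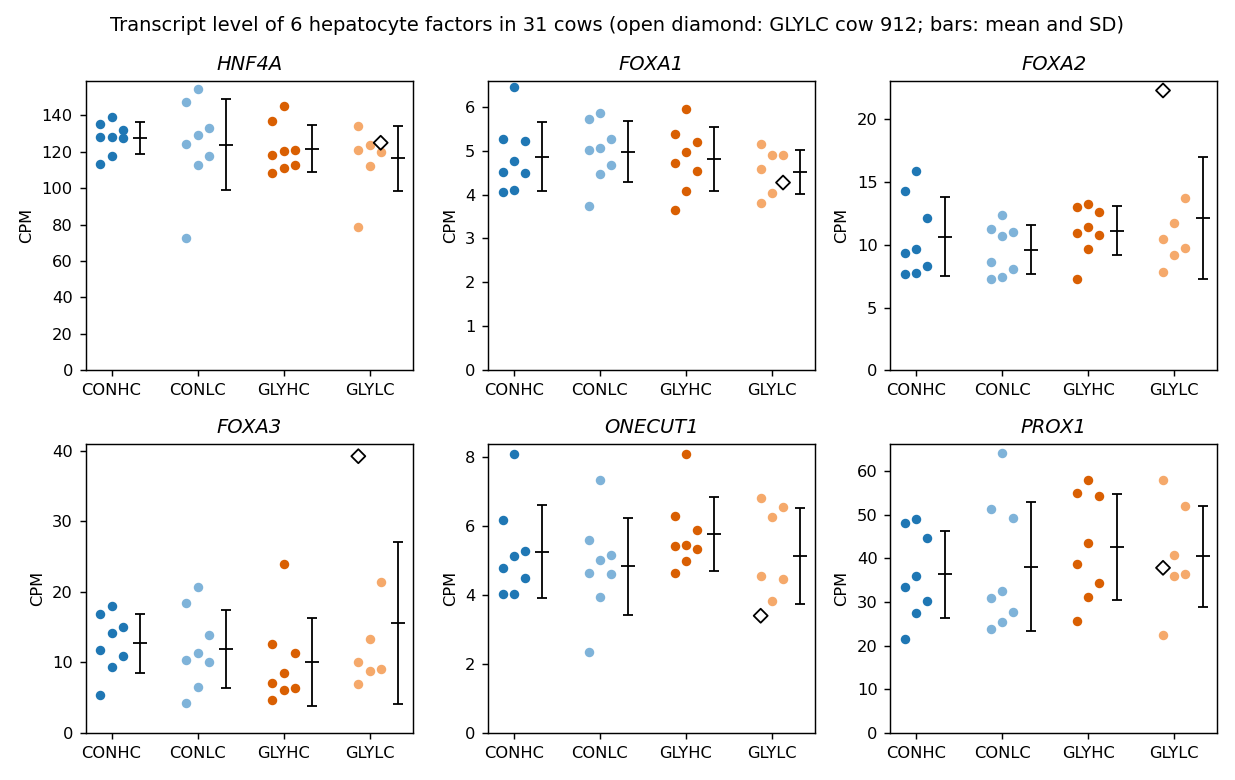
Level of each of the 6 factors in CPM (vertical axis, linear and from 0) for the 31 cows by feeding group (horizontal axis). Each point is a cow, the open diamond is GLYLC cow 912, and the bar beside a group is its mean and SD. The 4 groups overlap for every factor, and cow 912 is highest for FOXA2 (22.3 CPM) and FOXA3 (39.2 CPM).

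The first question was whether the concentrate proportion or the glyphosate residues changed the level of these factors. None of the 6 was differentially expressed in any of 7 comparisons, at the rule of an unadjusted p under 0.05 and an adjusted p under 0.1 (edgeR's quasi-likelihood test, Benjamini-Hochberg adjustment over 15916 genes), and none of the 42 effects reached an unadjusted p under 0.05. The share of all tested genes called by that rule was 0% for CONHC vs CONLC, 0.201% for GLYHC vs GLYLC, 0% for GLYHC vs CONHC, 0.0628% for GLYLC vs CONLC, 0% for the interaction of glyphosate with concentrate, 1.45% for HC vs LC and 0% for GLY vs CON. The share at an unadjusted p under 0.05 was, in the same order, 5.96%, 12.5%, 2.92%, 5.65%, 4.21%, 13.7% and 3.92%. With 6 genes, a count of 0 does not set the factors apart from these shares. DESeq2 fitted to the same counts also called 0 of the 6 in each comparison.

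The 95% intervals of all 42 effects included no change, and their widths say how large a change could have been missed. For HNF4A the HC cows differed from the LC cows by 0.05 on the log2 scale (SE 0.08, interval -0.10 to 0.21), a 1.04-fold level with an interval from 0.930-fold to 1.16-fold. Between GLY and CON cows HNF4A differed by -0.08 (SE 0.08, interval -0.24 to 0.08). FOXA1 had intervals of like width, from -0.13 to 0.19 for HC vs LC and from -0.24 to 0.08 for GLY vs CON.

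For ONECUT1 the log2 difference was 0.15 for HC vs LC (interval -0.11 to 0.41) and 0.11 for GLY vs CON (interval -0.15 to 0.37). PROX1 differed by 0.00 for HC vs LC (interval -0.31 to 0.31) and by 0.16 for GLY vs CON (interval -0.15 to 0.47). FOXA2 differed by 0.01 for HC vs LC (interval -0.26 to 0.28) and by 0.20 for GLY vs CON (interval -0.07 to 0.47), which were 0.12 (SE 0.11) and 0.10 (SE 0.11) without cow 912. FOXA3 was the least precisely measured, at -0.27 for HC vs LC (interval -0.79 to 0.26) and 0.01 for GLY vs CON (interval -0.51 to 0.54). Without cow 912 these FOXA3 values were -0.05 (SE 0.23) and -0.20 (SE 0.23), so that the second changed sign.

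The lowest unadjusted p of the 42 belonged to FOXA2 in GLYLC vs CONLC, with a log2 difference of 0.34 (SE 0.19, edgeR's quasi-likelihood test, adjusted p = 0.948), and 5 of 7 GLYLC cows lay above the CONLC median. Without cow 912 the difference was 0.13 (SE 0.17, edgeR's quasi-likelihood test, adjusted p = 1). FOXA3 in GLYHC vs GLYLC differed by -0.63 (SE 0.36, edgeR's quasi-likelihood test, adjusted p = 0.482), which became -0.21 (SE 0.34) without cow 912 and -0.94 without GLYHC cow 117. In GLYLC vs CONLC, FOXA3 differed by 0.38 (SE 0.36) with cow 912 and by -0.05 (SE 0.33) without it. The interaction of FOXA3 was -0.72 (SE 0.51), and -0.30 (SE 0.46) without cow 912.

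**Figure D2:**
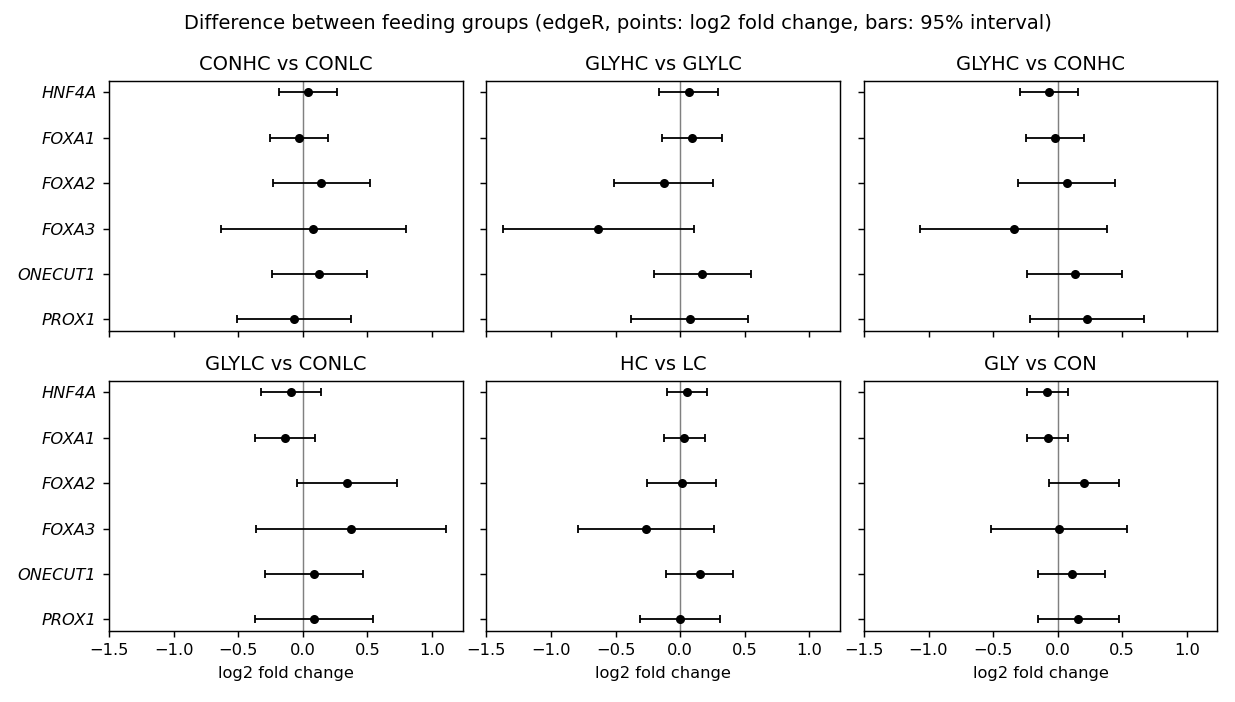
Log2 fold change (horizontal axis) of the 6 factors in 4 comparisons of groups and in the averages HC vs LC and GLY vs CON, all cows included. Points are edgeR estimates and bars are 95% intervals. Every bar crosses 0, and the bars are shortest for HNF4A and FOXA1 and longest for FOXA3.

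A list of 20 other hepatocyte factors, all tested, gave the wider setting. HC vs LC called 1 of the 20, with NR2F1 (COUP-TFI, an orphan nuclear receptor) lower by -0.54 on the log2 scale in HC (SE 0.15, edgeR's quasi-likelihood test, adjusted p = 0.0918), and the other 6 comparisons called 0 of 20. The median log2 difference of the list was -0.03 for HC vs LC and 0.07 for GLY vs CON, beside -0.01 and 0.00 over all tested genes. NR2F1 was at 1.07 to 4.93 CPM, and its call was lost in 22 of 31 fits that left out 1 cow, with adjusted p from 0.0360 to 0.151, and without a filter on low counts (adjusted p = 0.107, edgeR). The estimates of all 8 stellate cell markers were also lower in HC, and which cells of the biopsy gave the NR2F1 reads was not tested. ATF5, a stress-responsive bZIP factor, was lower in CONHC than in CONLC by -0.66 (SE 0.22, edgeR's quasi-likelihood test, adjusted p = 0.616), and did not pass. The abundant CREB3L3 and CEBPD, of the same list, differed by 0.11 (SE 0.15) and 0.06 (SE 0.13) for HC vs LC and also did not pass. The unadjusted threshold for HC vs LC was reached by NR2F1, NR5A2 and NR1H4, the bile acid receptor, of the 20, and by 13.7% of all tested genes. Of these listed factors, 1 was higher and 2 were lower in HC. NR1H4 was highest in LC cow 912, at 81.5 CPM beside 56.5 CPM in the next cow. The part of cow 912 in the NR1H4 difference was not tested.

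Plasma proteins and metabolic enzymes of hepatocytes were read from 2 lists, whose genes were not checked as targets of the factors. None of 20 plasma proteins and none of 16 metabolic enzymes was called in any comparison by edgeR. For HC vs LC, 3 proteins and 4 enzymes were higher at an unadjusted p under 0.05, a threshold that 13.7% of all tested genes reached. ALB differed by 0.07 (SE 0.11), TF (transferrin) by 0.24 (SE 0.09), FGB (a fibrinogen chain) by -0.13 (SE 0.14), CPS1 (the first enzyme of the urea cycle) by 0.06 (SE 0.10) and PCK1 (a gluconeogenic enzyme) by 0.11 (SE 0.16) on the log2 scale for HC vs LC. LC cow 912 was the lowest of the 31 cows for ALB, TF, CPS1 and PCK1 and the highest for FGB. The part of that cow in these HC vs LC differences and counts was not tested. None of 12 inflammatory and acute phase genes was called either, but 6 of the 12 were higher at an unadjusted p under 0.05 in GLYLC vs CONLC. The share of all tested genes there was 5.65%, and GLYLC is the group of cow 912.

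Called genes of other cell types stood in 3 lists for HC vs LC. CD68 and CD5L, of 9 macrophage markers typical of Kupffer cells, rose with HC by 0.61 (SE 0.17) and 0.41 (SE 0.11), with adjusted p of 0.0948 and 0.0860 (edgeR's quasi-likelihood test), and 8 of the 9 had a higher estimate. The call of CD68 was lost in 22 and that of CD5L in 19 of 31 fits that left out 1 cow, both without cow 912 (adjusted p = 0.137 and 0.116, edgeR), and that of CD68 also without a filter on low counts (adjusted p = 0.107, edgeR). The macrophage list summed to 485 to 1338 CPM in CONHC, 605 to 1098 in CONLC, 561 to 1376 in GLYHC and 609 to 1130 in GLYLC. DCN (decorin), of 8 stellate cell markers, fell with HC by 0.50 (SE 0.10, edgeR's quasi-likelihood test, adjusted p = 0.0275), and all 8 had a lower estimate. DCN was also called for GLYHC vs GLYLC, at -0.65 (SE 0.14, edgeR's quasi-likelihood test, adjusted p = 0.0848), a call lost without cow 912 (adjusted p = 0.244, edgeR). The stellate list summed to 194 to 385 CPM in CONHC, 170 to 1860 in CONLC, 139 to 334.5 in GLYHC and 245 to 810 in GLYLC. Cow 103 was at the top of CONLC and cow 912 at the top of GLYLC. Of 8 intestinal markers, FABP2, MUC13, OLFM4 and BCO1 were called lower in HC, by -9.14, -7.13, -5.19 and -6.84 on the log2 scale, and the reads for them came almost wholly from cow 912. The same 4 were called for GLYHC vs GLYLC, and FABP2, OLFM4 and BCO1 for GLYLC vs CONLC. The bile duct, endothelial and lymphocyte lists had 0 called genes in each comparison. The part of these markers in the group values of the factors was not tested.

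Spread between cows within a feeding group was the second measure. The SD of log2 CPM was 0.20 for FOXA1, 0.23 for HNF4A, 0.36 for ONECUT1, 0.37 for FOXA2, 0.46 for PROX1 and 0.73 for FOXA3. Among the 500 genes of nearest mean level, these SDs stood at percentile 11.6 for FOXA1, 51.8 for HNF4A, 66.0 for ONECUT1, 82.0 for FOXA2, 92.2 for PROX1 and 97.0 for FOXA3. The biological coefficient of variation that edgeR estimated was 14.4%, 16.4%, 24.3%, 25.4%, 30.2% and 48.1% in the same order. Counting error alone gave a CV of 9.60% for ONECUT1 and 1.98% for HNF4A. FOXA1 was thus steady among genes of its level, whereas FOXA3 and PROX1 lay in the upper tail. Without cow 912 the SD of FOXA3 was 0.67 and that of FOXA2 was 0.32.

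**Figure D3:**
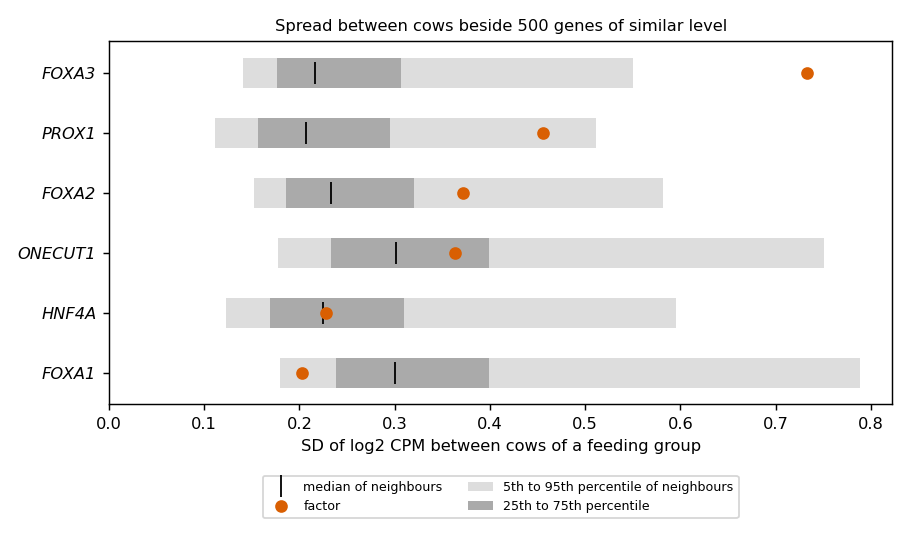
SD of log2 CPM between cows of a feeding group (horizontal axis) for each factor (orange point) beside the 500 genes nearest in mean level. Grey bars span the 5th to 95th and 25th to 75th percentiles of the neighbours and the black tick is their median. FOXA3 lies beyond the light bar, PROX1 near its upper end, and FOXA1 near its lower end.

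The third question was whether the factors rose and fell together between cows. Log2 CPM was taken relative to the mean of each feeding group, and the 15 pairs were tested by permutation within groups, with Benjamini-Hochberg adjustment over the 15. None passed an adjusted p under 0.05 by Pearson's r or by Spearman's rho, and an unadjusted p under 0.05 was reached by 4 pairs by r. The largest was HNF4A with FOXA1, r = 0.44 (permutation p = 0.0132, adjusted 0.165) and rho = 0.51 (permutation p = 0.0043, adjusted 0.0639) over 31 cows, with r between 0.34 and 0.69 inside the groups and r = 0.49 without the 2 cows farthest from the median. Next came HNF4A with ONECUT1 (r = 0.43, rho = 0.33, permutation p = 0.0550 and 0.0732, adjusted 0.165 and 0.183), which fell to r = 0.13 without the 2 cows of most extreme HNF4A and so rested on them. ONECUT1 with PROX1 gave r = 0.40 and rho = 0.40 (permutation p = 0.0399 and 0.0366, adjusted 0.165 and 0.139), r = 0.32 without 2 cows. HNF4A with FOXA2 gave r = 0.38 and rho = 0.36 (permutation p = 0.0457 and 0.0464, adjusted 0.165 and 0.139), with -0.31 inside CONHC and 0.22 without 2 cows. FOXA1 with PROX1 gave r = 0.37 and rho = 0.38 (permutation p = 0.0480 and 0.0456, adjusted 0.165 and 0.139), and r = 0.43 without 2 cows. HNF4A with PROX1 gave r = 0.33 and rho = 0.43 (permutation p = 0.111 and 0.0220, adjusted 0.254 and 0.139), and r = 0.48 without 2 cows.

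FOXA3 had a negative r with 4 of the other 5 factors, from -0.21 with FOXA1 to -0.31 with ONECUT1, the latter -0.20 without cow 912. FOXA2 and FOXA3, which share the forkhead domain, gave r = 0.19 and rho = 0.07 (permutation p = 0.345 and 0.730, adjusted 0.399 and 0.782), and r = -0.07 without cow 912. No pair of FOXA genes passed the adjusted threshold.

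**Figure D4:**
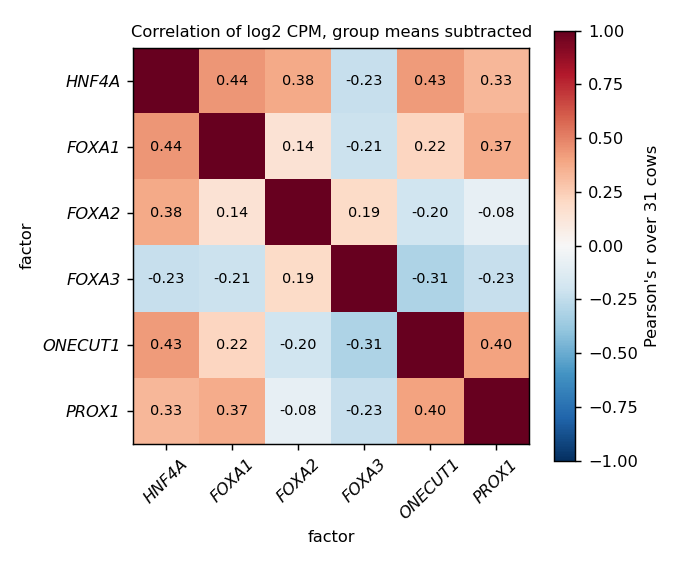
Pearson's r over 31 cows for each pair of factors (both axes list the factors), from log2 CPM after subtraction of group means. Red is positive, blue is negative. The block of HNF4A, FOXA1, ONECUT1 and PROX1 is positive (0.22 to 0.44), and FOXA3 is negative with 4 of the other 5.

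Each factor was also set beside 10 list scores (mean log2 CPM of a list relative to the median cow) and the log2 of assigned reads, 66 pairs in all. By Pearson's r, 1 pair had an adjusted p under 0.05, FOXA3 with the hepatocyte metabolic enzymes, r = -0.64 (permutation p = 0.00039, adjusted 0.0257) and rho = -0.54 (adjusted 0.0649). The r was -0.18 in CONHC, -0.71 in CONLC, -0.64 in GLYHC and -0.83 in GLYLC, the last -0.39 without cow 912. Without the 2 cows of most extreme score it was -0.44, and without cow 912 it was -0.52 (permutation adjusted p = 0.104), so the call rested on that cow. ONECUT1 rose with the score of the 20 other hepatocyte factors, rho = 0.66 (permutation adjusted p = 0.0198) and r = 0.51 (adjusted 0.0871), and rho was 0.64 without cow 912 (adjusted 0.0290). FOXA2 with the bile duct markers gave r = -0.53 and rho = -0.55 and did not pass (permutation adjusted p = 0.0779 and 0.0649). Inside GLYLC its r was -0.18, and -0.33 without cow 912. Over all groups r was -0.63 without cow 912 (permutation adjusted p = 0.0508, rho adjusted 0.0307). FOXA3 with the inflammatory and acute phase genes gave r = 0.47. HNF4A and FOXA1 gave r of 0.42 and 0.44 with the other hepatocyte factors (permutation adjusted p = 0.207 for these and the FOXA3 pair). HNF4A with the metabolic enzymes gave r = 0.31 (permutation adjusted p = 0.492). Without cow 912 that r was 0.57 and rho 0.55 (permutation adjusted p = 0.104 and 0.0893), with r = 0.34 without 2 further cows. HNF4A and PROX1 gave r of -0.39 and -0.42 with the lymphocyte markers (permutation adjusted p = 0.227 for both). FOXA2 and PROX1 gave r of -0.40 and -0.38 with the macrophage markers (permutation adjusted p = 0.227 for both). With the stellate markers, r of the 6 factors lay between -0.25 and 0.16, and between -0.34 and 0.11 without cow 912. The r with log2 assigned reads was between -0.19 and 0.16 for the 6 factors. Inside single groups it reached from -0.89 for PROX1 in GLYLC to 0.82 for FOXA1 in CONHC, where FOXA1 in CONLC had -0.53. These values inside groups were not tested.

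**Figure D5:**
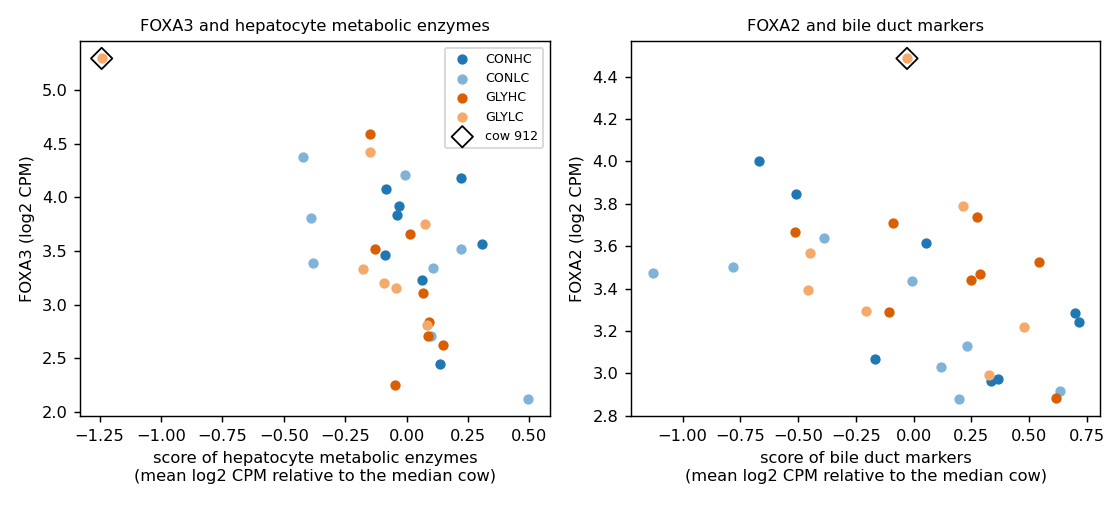
Left, FOXA3 (vertical axis, log2 CPM) against the score of 16 hepatocyte metabolic enzymes. Right, FOXA2 against the score of the bile duct markers. Scores are mean log2 CPM relative to the median cow, colours give the feeding group, each point is a cow and the diamond is cow 912, which has the highest FOXA3 and the lowest enzyme score (r = -0.64 with it and -0.52 without it) and the highest FOXA2.

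The genes whose pattern over cows was most like that of each factor were ranked by Spearman's rho of log2 CPM relative to group means, over 31 cows and 11132 candidate genes with a symbol and a mean of at least 1 CPM. HNF4A was most like ADRA1A (an adrenergic receptor, rho = 0.82), KLF9 (a Krüppel-like factor, 0.78) and ELL2 (a transcription elongation factor, 0.77). FOXA1 was most like MYH14 (0.75), FZD5 (a Wnt receptor, 0.74) and HGSNAT (0.69), and FOXA2 most like NAPA (0.76) and SWI5 (0.75). FOXA3 was most like ELF3 (an epithelial ETS factor, 0.79), SBNO2 (0.76) and CLDN7 (a tight junction claudin, 0.73), which were 0.74, 0.71 and 0.68 without cow 912. ONECUT1 was most like KIAA0556 (0.79), IMPG2 (0.79) and PRRC2B (0.76). PROX1 was most like MED13 (a Mediator subunit, 0.92), NCOA2 (a nuclear receptor coactivator, 0.89) and EIF4EBP2 (a repressor of translation initiation, 0.89). The number of candidates with rho of at least 0.7 was 381 for PROX1, 29 for ONECUT1 and 2 to 7 for each of the other 4 factors. At rho of -0.7 or lower it was 124 for PROX1, 9 for ONECUT1 and 0 to 5 for each of the others. The pattern of PROX1 was thus shared by many genes and was not particular to the 3 named. These rankings are descriptions over the same libraries and carry no test.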

How the data were processed

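RNA was isolated from the 31 liver biopsies and libraries were made with a stranded mRNA kit, per the labels. After FastQC and trimming by Trim Galore, the authors aligned the reads with HISAT2 2.1.0 to UMD3.1 and counted reads per gene with HTSeq 0.8.0 (names and versions from the submitters' processing notes). Whether counting used strand is not given in the sources used here. The deposited raw counts per gene were used. A second deposited table, of values that the authors normalized with DESeq2 1.20.0, was not used. All 31 columns were mapped to cows by their titles.

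Tests used edgeR 4.0.16 in R 4.3.3 (TMM, quasi-likelihood) on 15916 genes whose reads over the 31 cows came to 20 or more. A 4-group model was fitted to all cows, and additive models gave HC vs LC and GLY vs CON. The SE was derived from the F statistic. Calls needed an unadjusted p under 0.05 and, after Benjamini-Hochberg adjustment over all tested genes, a value under 0.1. Log2 CPM used a prior count of 2. Correlations used 100000 permutations within groups in Python 3.11.15 (numpy 2.4.6, pandas 2.3.3, scipy 1.17.1, matplotlib 3.10.9). Alternatives were other normalizations, filters, DESeq2 1.42.0, robust fits, subsets of groups and each cow left out. Similar genes without cow 912 and the alternatives for called list genes were added after seeing the data. The steps were tested on simulated data.

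The members and gene lists were chosen with earlier results of these data known. Text names all members with a row, from each list every called gene or otherwise the 3 most abundant, and the 3 genes most like each member, of which 2 genes are not reported here. ATF5, NR5A2, NR1H4 and the markers of cow 912 were named after their values were seen. The labels give no batch. Cows are separate animals, with 11675775 to 36675542 reads each, and counting error is largest for FOXA1 and ONECUT1. Gene lengths and a UMD3.1 annotation were not used here, so levels were not compared between genes and no coordinates or sequences are given.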

Additional observations from a re-analysis of the deposited data

Results flagged for a closer look

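Of 24 combinations of factor and feeding group, 3 held a cow far from the rest of its group by Dixon's test of extreme values. For normally distributed values, chance passes this test in about 5% of groups. CPM was tested here without a log scale, so that share need not hold. In GLYLC, cow 102 had 78.7 CPM of HNF4A and the next cow 112 CPM. In GLYLC, cow 912 had 22.3 CPM of FOXA2 and the next cow 13.8 CPM. In GLYHC, cow 117 had 24.0 CPM of FOXA3 and the next cow 12.6 CPM. FOXA3 of GLYLC cow 912, at 39.2 CPM with cow 905 next at 21.3 CPM, was not flagged. Cow 912 is the one with the intestinal markers, and cow 117 had the highest summed macrophage and lymphocyte markers, 1376 and 107 CPM. Their part in the values of the factors was not tested.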

How the results depend on the processing

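The count of 0 of 6 factors called held in each comparison under RLE and upper-quartile normalization, both filters, the robust fit, DESeq2, fits on only the compared groups, and each of 31 fits without 1 cow. The 42 effects had their direction in 296 of 300 alternative fits, on all cows or on only the compared groups. The other 4 were PROX1 for HC vs LC (-0.00016 as reported), at 0.0019 with RLE, 0.000414 with upper-quartile scaling, 0.000857 without a filter and 0.0012 with DESeq2. Leaving out 1 cow turned the direction of 18 of the 42 effects, each within its own interval, and the range of the log2 difference over those fits follows. For HNF4A it was -0.041 to 0.093 for CONHC vs CONLC, -0.0102 to 0.10 for GLYHC vs GLYLC and -0.051 to 0.10 for interaction. For FOXA1 it was -0.10 to 0.00897 for CONHC vs CONLC, -0.058 to 0.0600 for GLYHC vs CONHC and -0.0031 to 0.053 for HC vs LC. For FOXA3 it was -0.043 to 0.24 for CONHC vs CONLC, -0.046 to 0.54 for GLYLC vs CONLC and -0.20 to 0.077 for GLY vs CON. For PROX1 it was -0.14 to 0.081 for CONHC vs CONLC, -0.025 to 0.18 for GLYHC vs GLYLC, -0.0197 to 0.24 for GLYLC vs CONLC, -0.0084 to 0.25 for interaction and -0.047 to 0.077 for HC vs LC. For FOXA2 it was -0.21 to 0.086 for GLYHC vs GLYLC and -0.045 to 0.12 for HC vs LC. For ONECUT1 it was -0.013 to 0.19 for GLYLC vs CONLC and -0.064 to 0.17 for interaction. An unadjusted p under 0.05 was reached by FOXA3 in GLYHC vs GLYLC without GLYHC cow 117 (edgeR's quasi-likelihood test, adjusted p = 0.277) or GLYLC cow 42 and in the interaction without cow 117, and by FOXA2 in GLYLC vs CONLC without CONLC cow 145, GLYLC cow 102 or GLYLC cow 544.

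Without cow 912, the number of correlations of factors with scores that passed by Pearson's r was 0 in place of 1, the SD of FOXA2 was 0.32 in place of 0.37 and r of FOXA2 with FOXA3 was -0.066 in place of 0.19. Some calls of the intestinal markers, high in cow 912, turned direction with DESeq2, which by default replaces outlying counts. With edgeR, FABP2 was -9.77, 10.69 and -9.14 and BCO1 -9.16, 8.57 and -6.84 for GLYHC vs GLYLC, GLYLC vs CONLC and HC vs LC, and MUC13 -7.13 for HC vs LC. With DESeq2 on all cows FABP2 was 1.199 for GLYHC vs GLYLC, -0.49 for GLYLC vs CONLC and 0.80 for HC vs LC, BCO1 was 0.50, -0.90 and 0.97, and MUC13 was 0.0421 for HC vs LC. On only the compared groups FABP2 was 1.19 and -0.50 and BCO1 0.50 and -0.91 for GLYHC vs GLYLC and GLYLC vs CONLC. MUC13 in GLYHC vs GLYLC and OLFM4 in all 3 comparisons had the same direction with DESeq2 and were no longer called. FABP2, MUC13, OLFM4 and BCO1 had no value in the fit without cow 912, so the 30 fits counted for them all hold that cow. The calls of FABP2, OLFM4 and BCO1 in GLYLC vs CONLC were lost in 22, 24 and 22 of 30 fits without 1 cow. Those in GLYHC vs GLYLC, MUC13 included, were lost in 3 to 15 of 30, and those for HC vs LC in 0. The call of DCN in GLYHC vs GLYLC was lost in 11 of 31 such fits, in the robust fit (adjusted p = 0.101, edgeR) and on only the compared groups (adjusted p = 0.352, edgeR). No paired analysis was possible because the groups share no cow numbers. Depth limits FOXA1 and ONECUT1 most, at 50 to 226 reads per cow.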
